A study of Homo sapiens with 6 samples.

Results

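Eph receptors and their ephrin ligands were followed in DCIS.COM breast cells after knockdown of BCL9. The rule took 10 genes by symbol from the 58676 genes of the expression table: the receptors EPHA1, EPHA2, EPHA4, EPHB2, EPHB3 and EPHB4, and the ligands EFNA1, EFNA5, EFNB1 and EFNB2. Each of the 10 symbols matched 1 row, and all 10 passed the filter on low values. DCIS.COM is a human cell line that models basal ductal carcinoma in situ (DCIS), a pre-invasive breast lesion. RNA sequencing compared 3 NS control samples, transduced with a PLKO.1 lentiviral vector carrying a non-silencing sequence, with 3 BCL9 KD samples, transduced with a PLKO.1 vector carrying an shRNA against BCL9. The study used this comparison to ask which genes depend on BCL9, a coactivator of Wnt signaling that was examined there together with the transcription factor STAT3. All samples were grown in DMEM/F12 with horse serum and antibiotic. Each sample was 1 flask of puromycin-selected cells of a transduced line, so the p-values below measure the spread between flasks and not between independent transductions, and the labels name no further BCL9 shRNA.

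Eph receptors are receptor tyrosine kinases that bind ephrins displayed on neighboring cells, so the signal needs cell contact. It runs forward into the cell with the receptor and in reverse into the cell with the ephrin. Ephrin-A ligands are held in the membrane by a lipid anchor and bind mostly EphA receptors, whereas ephrin-B ligands span the membrane and bind mostly EphB receptors. In epithelia this pathway is known for cell sorting, repulsion and control of cell contacts, and EphA2 and EphB4 are widely studied in breast cancer.

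The knockdown and the cell type were checked first. BCL9 (ENSG00000116128) was at 6.25, 6.24 and 5.34 FPKM in NS control and at 2.86, 2.78 and 2.59 FPKM in BCL9 KD samples, where FPKM is a read count divided by gene length and by sequencing depth. The log2 fold change of BCL9 was −0.99 with a standard error of 0.0933 and a limma adjusted p of 0.00773. The samples held 15222452 to 26949026 reads, and a single member was covered by 208 to 8693 reads in a sample. The basal markers KRT5, KRT14, KRT17 and TP63 and the general epithelial markers CDH1 and EPCAM lay between 12.5 and 650.0 FPKM. Summed, they were at 1110 to 1280 FPKM in NS control and 1140 to 1210 FPKM in BCL9 KD samples, mostly KRT17 and KRT5. TP63 was higher and CDH1 lower in BCL9 KD samples without overlap, by factors of 1.2 and 0.891, with limma adjusted p of 0.18 and 0.173. ESR1 and PGR reached at most 0.098 FPKM, and PGR was at 0 in every sample. Of 6 markers of other cell types (PTPRC, CD3E, PECAM1, VWF, COL1A1 and DES) 2 could be tested and 1 passed, and DES was at 0 in every sample. Their summed level was 2.27 to 2.84 FPKM in NS control and 3.81 to 4.44 FPKM in BCL9 KD samples, mostly PECAM1, a cell adhesion molecule of endothelium, whose log2 fold change was 0.61 (limma adjusted p 0.0477). VWF had at most 5 reads in a sample, and PTPRC and CD3E at most 1 read. COL1A1 overlapped between the groups, with means of 0.517 FPKM in NS control and 0.594 FPKM in BCL9 KD samples. The part of other cell types or their transcripts in the results below was not tested.

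In NS control the receptor EPHA2 had the highest level of the 10 genes, with a mean of 66.1 ± 3.44 FPKM (SD, n = 3), followed by EPHB4 with 43.5 ± 5.2 FPKM. EFNA5, EPHB3 and EFNB1 came next, with means of 27.8, 27.2 and 27.0 FPKM, and their values overlapped between neighbors in this order. EFNA1 followed at 12.6 FPKM, EFNB2 at 8.51, EPHA1 at 6.96, EPHA4 at 3.5 and EPHB2 at 1.8 FPKM, with no overlap between neighbors. In BCL9 KD samples EPHA2 and EPHB4 were again the first and second, but EFNA5, at 18.6 FPKM, stood below EFNB1 at 30.0 FPKM and EPHB3 at 25.5 FPKM. FPKM is divided by gene length, which makes levels roughly comparable between genes. It is not corrected for GC content or for overlapping genes, so the order of EFNA5, EPHB3 and EFNB1 in NS control is uncertain. In these bulk samples a change in the share of cells that express a gene and a change in the RNA per cell cannot be told apart.

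**Figure D1:**
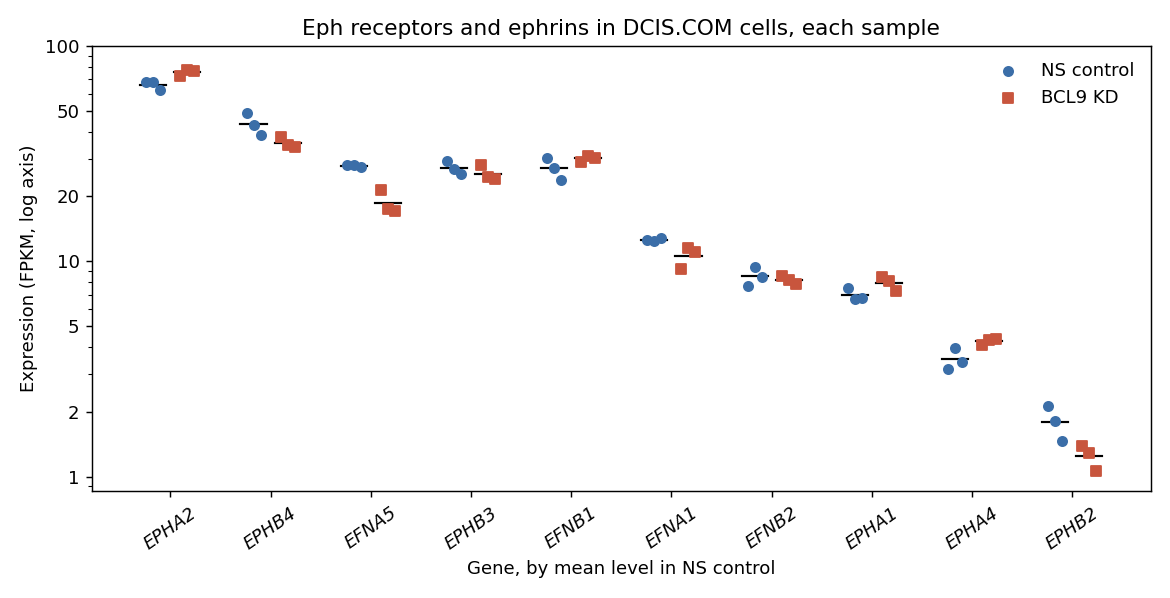
Expression of the 10 genes in each sample, in FPKM on a log axis, with circles for the 3 NS control samples, squares for the 3 BCL9 KD samples and a line at each group's mean. The BCL9 KD values of EFNA5, 17.1 to 21.4 FPKM, lie below its NS control values, 27.4 to 28.1 FPKM, while those of EPHB3, EFNB1, EFNB2 and EPHA1 overlap between the groups.

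The 250 bases before the RefSeq transcription start are shown for 3 of the genes, because EFNA5 is the gene that passed the test and EPHA2 and EPHB4 are the most abundant receptors, with values that lay apart in opposite directions. The sequences were taken from RefSeq (GRCh38.p14) and read 5′ to 3′ on the gene's own strand, the minus strand in each case. Capitals mark matches, on either strand, to GGGCGG, the core of the GC box bound by factors of the SP family, and to TGACGTCA, the cAMP response element. EFNA5 lies at chr5:107670938-107671187, EPHA2 at chr1:16156070-16156319 and EPHB4 at chr7:100827524-100827773.
EFNA5: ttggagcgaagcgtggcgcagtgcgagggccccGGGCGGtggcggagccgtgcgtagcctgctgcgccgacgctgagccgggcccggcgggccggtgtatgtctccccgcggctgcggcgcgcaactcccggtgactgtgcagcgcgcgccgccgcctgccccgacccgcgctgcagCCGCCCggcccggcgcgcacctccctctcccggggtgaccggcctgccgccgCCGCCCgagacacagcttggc
EPHA2: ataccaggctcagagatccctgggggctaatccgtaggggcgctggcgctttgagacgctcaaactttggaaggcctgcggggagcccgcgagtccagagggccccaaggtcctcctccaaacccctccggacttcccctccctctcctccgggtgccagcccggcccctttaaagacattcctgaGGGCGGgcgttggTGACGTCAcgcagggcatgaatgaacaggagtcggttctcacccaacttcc
EPHB4: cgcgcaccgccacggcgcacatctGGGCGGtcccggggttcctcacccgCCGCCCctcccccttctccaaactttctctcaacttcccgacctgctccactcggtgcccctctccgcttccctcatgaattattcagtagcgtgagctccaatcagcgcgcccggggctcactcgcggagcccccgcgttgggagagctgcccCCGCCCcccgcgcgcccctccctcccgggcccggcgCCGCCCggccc

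The EFNA5 stretch was 79.6% G or C, against 72.8% for EPHB4, 63.2% for EPHA2 and a median of 58.0% over all promoters. GGGCGG was found in a promoter of all 10 genes, of which EPHA4 and EPHB2 have 2 listed starts each, and in 42.6% of 35116 promoters, searched over the same 250 bases before the start. TGACGTCA was found in EPHA2 alone among the 10, at bases −51 to −44 from the start, and in 1.65% of all promoters. The STAT motif TTCNNNGAA (6.57% of all promoters), the TCF motif CTTTGAT (2.26%), the AP-1 motif TGANTCA (6.57%) and the ETS motif CCGGAAG (8.52%) had a match in 0 of the 10. Both strands were searched, and a missing match says only that these letters are not in this stretch. GGGCGG and TGACGTCA were chosen after the sequences were seen, and a match is not a measured site.

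Among the 10 genes, 1 passed an adjusted p under 0.05 in limma, EFNA5, which was lower in BCL9 KD samples. That is 1 of 10, against 5.87% of the 13745 genes tested (2.96% higher and 2.91% lower in BCL9 KD samples). The 3 values of each group did not overlap for 6 of the 10, of which 4 were lower in BCL9 KD samples (EFNA5, EPHB2, EPHB4 and EFNA1) and 2 higher (EPHA2 and EPHA4), compared with 34.2% of all tested genes (16.4% lower and 17.8% higher). An unadjusted limma p under 0.05 was found for 6 of the 10 and for 27.5% of all tested genes. With 1 sample left out that count was lower: it was 5 without NS control replicate 1, 3 without NS control replicate 2 or 3, 4 without BCL9 KD replicate 1, 2 without BCL9 KD replicate 2 and 1 without BCL9 KD replicate 3, in fits where 28.0%, 19.0%, 34.7%, 25.6%, 17.5% and 16.9% of all genes had such a p. The median log2 fold change of the 10 was −0.07, with a median size of 0.22, against 0.04 and 0.2 over all tested genes. The fold changes are on the log2(FPKM + 0.5) scale, which understates changes of low genes.

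The 3 EphA receptors all had higher means in BCL9 KD samples, and 7621 of the 13745 tested genes had a log2 fold change above 0. The adjusted limma and voom tests passed 0 of the 3, against 5.87% and 9.68% of all tested genes. An unadjusted limma p under 0.05 was found for 2 of the 3, against 27.5% of all tested genes. EPHA2 (ENSG00000142627, chr1:16124337-16156087, hg38), the receptor of ephrin-A1 in epithelia, was at 68.0, 68.1 and 62.1 FPKM in NS control and at 72.8, 77.6 and 76.4 FPKM in BCL9 KD samples. Each BCL9 KD value lay above each NS control value, and the mean differed by a factor of 1.14. EPHA2 had a log2 fold change of 0.19 ± 0.0686 (SE; 95% interval 0.03 to 0.36), with a limma adjusted p of 0.128. After a correction for GC content the log2 fold change was 0.27 and passed, with a limma adjusted p of 0.0365, in a fit that called 12.6% of all genes. That call was lost when the replicate number was added to the GC-corrected fit (0.27, limma adjusted p 0.0763).

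EPHA4 (ENSG00000116106, chr2:221418027-221574202), which binds ephrins of both classes, was at 3.15, 3.96 and 3.4 FPKM in NS control and at 4.08, 4.31 and 4.35 FPKM in BCL9 KD samples. The groups did not overlap, and BCL9 KD replicate 1 was close to the highest NS control value. EPHA4 had a log2 fold change of 0.25 ± 0.0991 (95% interval 0.02 to 0.49, limma adjusted p 0.16). EPHA1 (ENSG00000146904, chr7:143390289-143408892), the founding member of the family, was at 7.51, 6.65 and 6.73 FPKM in NS control and at 8.43, 8.08 and 7.28 FPKM in BCL9 KD samples. These groups overlapped, since BCL9 KD replicate 3 lay below NS control replicate 1, and the log2 fold change was 0.18 ± 0.088 (95% interval −0.03 to 0.38, limma adjusted p 0.243), or 0.27 after GC correction (limma adjusted p 0.0707). One end of EPHA1 overlaps ZYX on the opposite strand, a gene with up to 3318 reads, so reads at that end are uncertain, as whether counting used strand is not given in the sources used here.

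The 3 EphB receptors all had lower means in BCL9 KD samples, and 44.6% of all tested genes had a log2 fold change below 0. Again 0 of the 3 passed the adjusted limma or voom test, against 5.87% and 9.68% of all tested genes. An unadjusted limma p under 0.05 was found for 2 of the 3, against 27.5% of all tested genes. EPHB4 (ENSG00000196411, chr7:100802565-100827521), the receptor of ephrin-B2, was at 49.0, 42.9 and 38.7 FPKM in NS control and at 37.8, 34.8 and 33.8 FPKM in BCL9 KD samples. The groups did not overlap, although the lowest NS control and the highest BCL9 KD value were close. For EPHB4 the log2 fold change was −0.29 ± 0.1 (95% interval −0.52 to −0.05, limma adjusted p 0.124). After GC correction EPHB4 was at −0.21 (limma adjusted p 0.078). Its 5′ end overlaps SLC12A9 on the opposite strand, which had up to 1175 reads.

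EPHB2 (ENSG00000133216, chr1:22710839-22921500), a receptor of ephrin-B ligands known for positioning cells in the intestinal epithelium, was at 2.12, 1.81 and 1.46 FPKM in NS control and at 1.39, 1.29 and 1.06 FPKM in BCL9 KD samples. It had the lowest level of the 10 and no overlap between the groups, with a log2 fold change of −0.39 ± 0.149 (95% interval −0.74 to −0.04, limma adjusted p 0.149). On reads recovered from the FPKM, tested with voom and limma, EPHB2 had a log2 fold change of −0.56 and an adjusted p of 0.0646. It was weaker after GC correction, at −0.3 (limma adjusted p 0.164), and without NS control replicate 1, at −0.29 (limma adjusted p 0.252). EPHB3 (ENSG00000182580, chr3:184561784-184582409), a close relative of EPHB2, was at 29.3, 26.9 and 25.4 FPKM in NS control and at 28.0, 24.6 and 24.0 FPKM in BCL9 KD samples. The groups overlapped, and the log2 fold change was −0.09 ± 0.0888 (95% interval −0.3 to 0.12, limma adjusted p 0.526). Its size was uncertain, at −0.016 after GC correction, −0.038 without NS control replicate 1, −0.05 without BCL9 KD replicate 3, −0.14 without NS control replicate 3 and −0.16 without BCL9 KD replicate 1. EPHB3 lies within the annotated span of EIF2B5 on the same strand, which had up to 2803 reads, so the split of reads between them is uncertain.

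**Figure D2:**
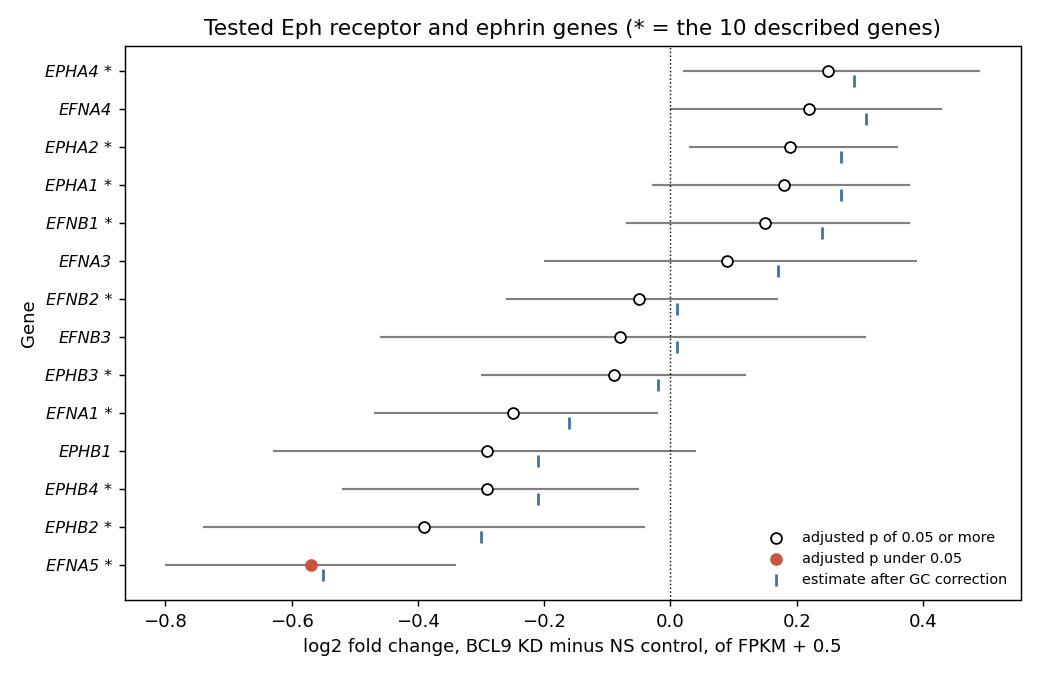
The log2 fold change, BCL9 KD minus NS control, of log2(FPKM + 0.5) for the 14 tested Eph receptor and ephrin genes, with 95% intervals and with ticks for the estimate after GC correction; asterisks mark the 10 described genes. EFNA5, at −0.57, is the filled point with an adjusted p under 0.05; the 3 EphA receptors lie above 0 and the 4 tested EphB receptors below 0.

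Of the ephrin-A ligands, the 2 members EFNA5 and EFNA1 were lower in BCL9 KD samples without overlap, as were 16.4% of all tested genes, and EFNA5 passed the test. The other 2 tested ephrin-A genes, EFNA3 and EFNA4, had log2 fold changes above 0 and are described with the complete family. EFNA5 (ENSG00000184349, chr5:107376889-107670895), known for guiding axons by repulsion, was at 28.1, 27.9 and 27.4 FPKM in NS control and at 21.4, 17.4 and 17.1 FPKM in BCL9 KD samples. BCL9 KD replicate 1 stood above the other two BCL9 KD samples but below every NS control sample. EFNA5 fell by 0.57 on the log2 scale (SE 0.0957, 95% interval −0.8 to −0.34, limma adjusted p 0.0291), to 0.671 of its NS control mean. The exact two-sided permutation test of its 3 against 3 values gave p = 0.1, the smallest that this design allows. The voom fit gave −0.61 with a limma adjusted p of 0.0105, in a fit that called 9.68% of all genes, and the GC correction gave −0.55 with 0.0152. The call was lost without NS control replicate 2 (limma adjusted p 0.132), without BCL9 KD replicate 2 (0.151) and without BCL9 KD replicate 3 (0.153). In those fits 0.0873%, 0.0943% and 0.0363% of all genes passed. The call was also lost with no filter on low values (limma adjusted p 0.0776), where 0.462% of all genes passed. With the replicate number as a block it was lost too (limma adjusted p 0.0853), in a fit that called 0 of all genes. Without the mean-variance trend the limma adjusted p was 0.0516, and 2.42% of all genes passed. The log2 fold change of EFNA5 was between −0.67 and −0.51 over the fits that left out 1 sample.

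EFNA1 (ENSG00000169242, chr1:155127460-155134857), the main ligand of EphA2, was at 12.6, 12.4 and 12.8 FPKM in NS control and at 9.2, 11.5 and 11.1 FPKM in BCL9 KD samples. The NS control values were tight, and BCL9 KD replicate 1 was the lowest of the 6 samples. For EFNA1 the log2 fold change was −0.25 ± 0.0949 (95% interval −0.47 to −0.02, limma adjusted p 0.152). It was −0.15 without BCL9 KD replicate 1 and −0.16 after GC correction (limma adjusted p 0.255 and 0.299). Replicate 1 of BCL9 KD had the least EFNA1 and the most EFNA5 of its group.

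The ephrin-B ligands overlapped between the groups. EFNB1 (ENSG00000090776, chrX:68828997-68842147), which signals in reverse through its cytoplasmic tail, was at 30.3, 27.0 and 23.8 FPKM in NS control and at 29.0, 30.8 and 30.3 FPKM in BCL9 KD samples. EFNB1 had a log2 fold change of 0.15 ± 0.0969 (95% interval −0.07 to 0.38, limma adjusted p 0.335), and after GC correction it was 0.24 with a limma adjusted p of 0.0336, which was 0.0943 with the replicate number added. Without NS control replicate 3 the value was 0.07, and without NS control replicate 1 it was 0.24 (limma adjusted p 0.588 and 0.106). EFNB2 (ENSG00000125266, chr13:106489731-106535114), the ligand of EphB4 in blood vessel development, was at 7.65, 9.41 and 8.48 FPKM in NS control and at 8.56, 8.17 and 7.88 FPKM in BCL9 KD samples. Its log2 fold change was −0.05 ± 0.0921 (95% interval −0.26 to 0.17, limma adjusted p 0.767), and it was 0.012 after GC correction, 0.024 without NS control replicate 2 and −0.12 without NS control replicate 1.

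Summed over the described genes of each class, EphA receptors were at 78.6, 78.8 and 72.2 FPKM in NS control and at 85.4, 90.0 and 88.0 FPKM in BCL9 KD samples. EphB receptors were at 80.4, 71.6 and 65.5 FPKM and at 67.1, 60.7 and 58.9 FPKM, in the same order of groups. The EphA sums did not overlap between the groups and the EphB sums did. Ephrin-A ligands were at 40.7, 40.3 and 40.1 FPKM in NS control and at 30.6, 28.9 and 28.2 FPKM in BCL9 KD samples, without overlap. Ephrin-B ligands were at 38.0, 36.4 and 32.2 FPKM and at 37.5, 39.0 and 38.2 FPKM, with overlap. No test was made on these sums, which follow their most abundant members: EPHA2 made up 86.3% of the EphA sum in NS control and 86.1% in BCL9 KD samples.

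Ratios between genes within a sample do not depend on the scaling of that sample, and they are given as a description chosen after the levels were seen. Where the upper gene was higher and the lower gene was lower without overlap, the ratio had to lie apart too. This holds for EPHA2 to EPHB4, EPHA4 to EPHB2 and EPHA2 to EFNA1, so these ratios add no separate result. The ratio of EPHA2 to EPHB4 was 1.39, 1.59 and 1.61 in NS control and 1.93, 2.23 and 2.26 in BCL9 KD samples. The ratio of EPHA4 to EPHB2 was 1.49, 2.19 and 2.32 in NS control and 2.93, 3.35 and 4.1 in BCL9 KD samples. Both receptor ratios were higher in each BCL9 KD sample than in each NS control sample, as was the ratio of the EphA sum to the EphB sum, with means of 1.06 ± 0.0709 and 1.42 ± 0.126 (SD, n = 3 each). The receptor EPHA2 stood to its ligand EFNA1 at 5.4, 5.5 and 4.86 in NS control and at 7.92, 6.74 and 6.91 in BCL9 KD samples, again without overlap. The ratio of EFNA5 to EFNA1 was 2.23, 2.25 and 2.14 in NS control and 2.32, 1.52 and 1.55 in BCL9 KD samples, with overlap because of BCL9 KD replicate 1. Among the EphB receptors, the share of EPHB3 in the class sum was 37.6% ± 1.19 in NS control and 41.0% ± 0.621 in BCL9 KD samples, and that of EPHB4 was 59.9% ± 0.988 and 57.0% ± 0.668.

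**Figure D3:**
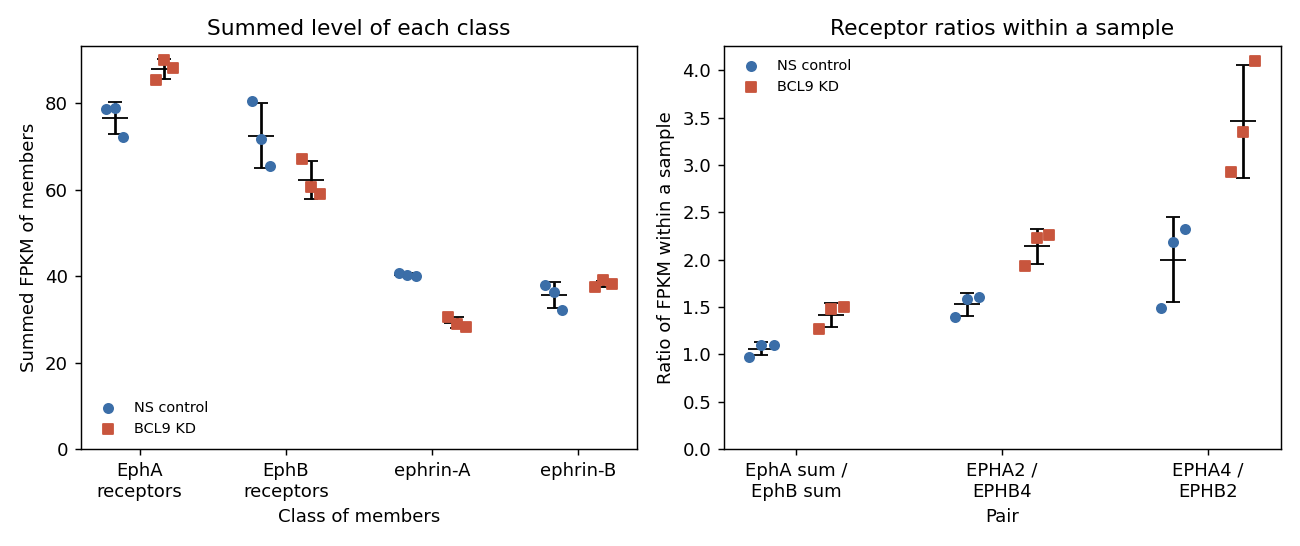
Left, summed FPKM of the described genes of each class; right, ratios of FPKM within a sample, with points for the samples and lines for the mean and SD of 3 samples per group. The EphA and ephrin-A sums do not overlap between the groups, and the ratio of EPHA2 to EPHB4 is 1.39 to 1.61 in NS control and 1.93 to 2.26 in BCL9 KD samples. That ratio had to lie apart, because EPHA2 and EPHB4 themselves lie apart in opposite directions.

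The complete family holds 22 genes, 14 receptors and 8 ephrins, of which 14 passed the filter on low values. EFNA5 was the 1 called, which is 7.14% of the 14, against 5.87% of all tested genes. The 4 tested family genes beyond the 10 were EPHB1, EFNA3, EFNA4 and EFNB3. EPHB1, a receptor of ephrin-B ligands, was at 0.867, 0.753 and 0.803 FPKM in NS control and at 0.553, 0.581 and 0.569 FPKM in BCL9 KD samples (log2 fold change −0.29 ± 0.141, limma adjusted p 0.232). The EPHB1 value was −0.53 with voom (limma adjusted p 0.0691) and −0.21 after GC correction (limma adjusted p 0.361). All 4 tested EphB receptors had log2 fold changes below 0, as did 44.6% of all tested genes. EFNA4, an ephrin-A ligand, was at 4.46, 5.13 and 5.25 FPKM in NS control and at 5.47, 6.02 and 6.01 FPKM in BCL9 KD samples, the opposite order of groups to EFNA1 and EFNA5 (log2 fold change 0.22 ± 0.0907, limma adjusted p 0.175). EFNA4, EFNA3 and EFNA1 lie next to each other on chromosome 1, and EFNA3 and EFNB3 overlapped between the groups, with log2 fold changes of 0.09 and −0.08. After GC correction EFNA3 was at 0.17 and EFNB3 changed sign to 0.01 (limma adjusted p 0.449 and 0.96).

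The 8 family genes below the filter were EPHA3, EPHA5, EPHA6, EPHA7, EPHA8, EPHA10, EPHB6 and EFNA2. EPHA3 had 2, 7 and 4 reads in NS control and 18, 28 and 12 reads in BCL9 KD samples, at most 0.156 FPKM. EPHB6, a receptor without kinase activity, had 50, 40 and 19 reads in NS control and 20, 22 and 20 reads in BCL9 KD samples. EPHA5, EPHA6, EPHA7 and EFNA2 had at most 1 read in a sample and EPHA10 at most 2. EPHA8 had 0 reads in every sample, which allows up to 3 reads by counting error, or 0.0208 to 0.0368 FPKM. The EPHA3 reads did not overlap between the groups, the EPHB6 reads did, and no test was made on genes below the filter.

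A list of 36 proteins that bind, cleave or signal from Eph receptors and ephrins gave 33 tested genes, of which 4 passed, 3 higher and 1 lower in BCL9 KD samples. That is 12.1%, against 5.87% of all tested genes. The median log2 fold change of the 33 was 0.02, with 15 below and 18 above 0, and 12 had no overlap between the groups (36.4%, against 34.2% of all tested genes). FYN, KALRN and CDC42 were below the filter and are listed at up to 0.388, 0.131 and 0.124 FPKM, CDC42 with at most 8 reads although it encodes a GTPase that cells use widely.

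RASA1, a GTPase activating protein of Ras that binds activated EphB receptors, was at 10.6, 15.6 and 19.2 FPKM in NS control and at 35.7, 29.7 and 32.7 FPKM in BCL9 KD samples. It rose by a log2 fold change of 1.12 ± 0.2 (95% interval 0.65 to 1.59, limma adjusted p 0.0328). NGEF, an exchange factor known as ephexin that binds EphA receptors, was at 1.27, 1.11 and 1.14 FPKM in NS control and at 2.16, 2.34 and 2.13 FPKM in BCL9 KD samples. It rose by 0.7 ± 0.105 on the log2 scale (limma adjusted p 0.0222). SDCBP, or syntenin, whose PDZ domains bind the tails of ephrin-B ligands, was at 5.4, 6.73 and 7.63 FPKM in NS control and at 9.38, 9.85 and 10.5 FPKM in BCL9 KD samples (log2 fold change 0.57 ± 0.126, limma adjusted p 0.0495). RASA1 and SDCBP both had their lowest value in NS control replicate 1.

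SRC, the kinase that acts downstream of receptors and ephrins alike, was the called partner that fell, from 11.7, 9.77 and 9.92 FPKM in NS control to 6.52, 6.56 and 6.66 FPKM in BCL9 KD samples. SRC had a log2 fold change of −0.63 ± 0.0875, with a limma adjusted p of 0.0187. ADAM10, the protease that cleaves ephrin-A ligands, was named after its values were seen and was at 8.43, 14.1 and 16.9 FPKM in NS control and at 18.6, 17.8 and 18.7 FPKM in BCL9 KD samples. The log2 fold change of ADAM10 was 0.52, with a limma adjusted p of 0.191, and its lowest value was again NS control replicate 1. All 4 called partners also passed with GC correction and with voom, where 5 and 6 of the 33 passed, and 0 of the 33 passed without NS control replicate 2, BCL9 KD replicate 2 or BCL9 KD replicate 3. In those 3 fits 7, 6 and 7 of the 33 had an unadjusted limma p under 0.05 (21.2%, 18.2% and 21.2%, against 19.0%, 17.5% and 16.9% of all genes), and 12, 13 and 5 of all genes were called. With no filter 0 of 36 partners passed limma (11 at an unadjusted p under 0.05, or 30.6%, against 14.3% of all genes), and with the replicate block 0 of 33 passed (11 at an unadjusted p under 0.05, or 33.3%, against 23.5%). The calls of RASA1 and SDCBP were lost without the trend and without BCL9 KD replicate 1, those of NGEF and SDCBP with GC correction and the block, and that of SDCBP also with robust fitting and with a pseudocount of 0.1 (limma adjusted p 0.0502 and 0.0504).

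**Figure D4:**
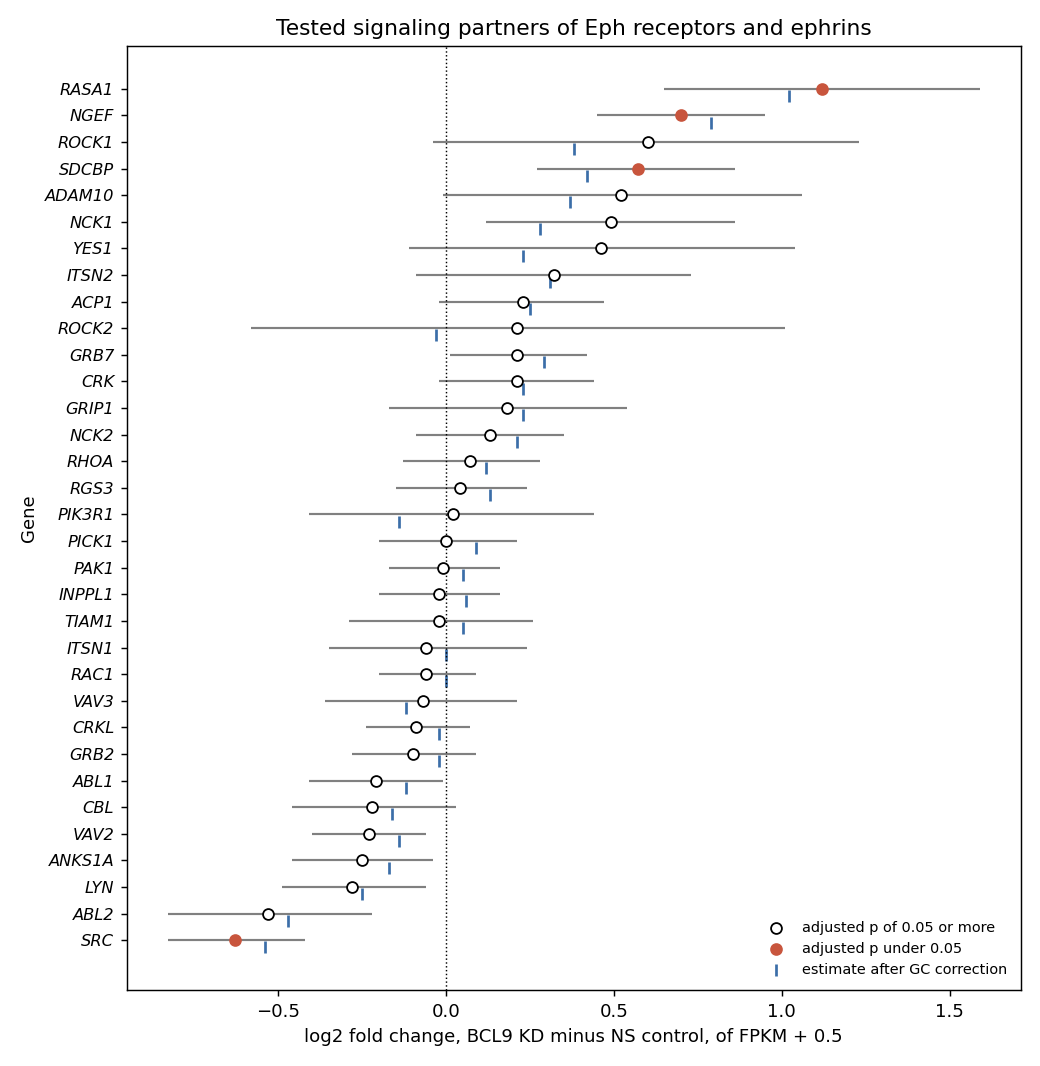
The log2 fold change, BCL9 KD minus NS control, of the 33 tested partners of Eph receptors and ephrins, with 95% intervals and ticks for the estimate after GC correction. The filled points are RASA1 at 1.12, NGEF at 0.7, SDCBP at 0.57 and SRC at −0.63, and the other 29 partners have an adjusted p of 0.05 or more.

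The tested genes whose profile over the 6 samples was nearest to that of EPHA2 were TKFC, PLOD3 and SCNN1A, at root mean square distances of 0.0216, 0.0217 and 0.027 between mean-centred log2 values, against a median of 0.208 over all tested genes. For EFNA1 the nearest were WDR5, MED26 and PMP22, at 0.042, 0.0425 and 0.0439, against a median of 0.236. These genes were picked as the nearest of all tested genes, so distances far below the median were bound to be found. Shared regulation was not tested.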

How the data were processed

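RNA was sequenced from 3 NS control and 3 BCL9 KD flasks of DCIS.COM cells, grouped by their titles. The submitters' processing notes name CASAVA, STAR, HTSeq 0.6.1 and the build hg38, and the methods name DESeq2 and edgeR for the authors' own tests, DESeq2 with 2 biological replicates per condition and edgeR for samples without replicates, whereas the labels and the table give 3, all used here. The authors deposited FPKM per gene, made from read counts and gene length, together with the gene length and annotation. FPKM multiplied by length gave whole multiples of 1 read within 0.1, from which reads and depth were recovered. Depth was 15222452 to 22712638 reads in NS control and 15665714 to 26949026 in BCL9 KD samples, and intervals on reads cover counting error only.

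The 13745 genes whose FPKM averaged 0.5 or more were compared between BCL9 KD and NS control with limma 3.58.1 (R 4.3.3, eBayes with trend) after a log2 transform with 0.5 added, with Benjamini-Hochberg adjustment over all of them and a threshold of 0.05. An exact permutation test was run on each member. Alternatives covered the pseudocount, filter, scaling, trend, robust fitting, replicate block, GC content (loess, span 0.3, from transcript sequences known for 98.8% of the genes), voom on the recovered reads, and leaving out each sample. The genes named are the 10 members, the family genes and partners that passed or were not tested, BCL9, and the 3 genes nearest to EPHA2 and EFNA1. The cell type markers come from a separate list. The remaining tested family genes, ADAM10 and the genes that overlap a member fall outside that rule. The members and lists were chosen with earlier results of these data known. Promoter windows came from RefSeq (GRCh38.p14), and all 10 members matched. Python 3.11 with numpy 2.4.6, pandas 2.3.3 and matplotlib 3.10.9 made the summaries and figures.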

Additional observations from a re-analysis of the deposited data

How the results depend on the processing

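Across 18 alternatives to the fit, 9 of the 10 genes kept their direction in all of them, and 169 of 180 values kept direction and side of the threshold. EFNA5 stayed at −0.57 but lost its call with no filter, without the trend and with the replicate block (limma adjusted p 0.0776, 0.0516 and 0.0853). With one sample left out its log2 fold change was −0.67 to −0.51 and it was called in 3 of 6 fits. GC correction brought EPHA2 (0.27) and EFNB1 (0.24) past the threshold, but not with the replicate block added (limma adjusted p 0.0763 and 0.0943). EFNB2 changed sign to 0.012 with GC correction, with or without the replicate block, and to 0.024 without NS control replicate 2, in a range of −0.12 to 0.024.

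The number called among the 10 genes, and likewise among the 22 of the family, was 1, and became 0 with no filter, without the trend and with the replicate block, 3 with GC correction, 1 with GC correction and the block, and 0 to 1 with one sample left out. At an unadjusted limma p under 0.05 those counts of 0 among the 10 became 6, 4 and 3, against 14.3%, 26.5% and 23.5% of all genes, and voom called 1. The 4 called partners became 0 with no filter, 2 without the trend, 0 with the replicate block (11 at an unadjusted p under 0.05), 2 with GC correction and the block, 6 with voom, and 0 to 7 with one sample left out. Over all genes the 807 calls became 142 with no filter, 536 with median-of-ratios scaling, 332 without the trend, 1330 with voom, 1727 with GC correction, 257 with GC correction and the block, and 5 to 1729 with one sample left out. The replicate block called 0 of all genes, with 3235 at an unadjusted limma p under 0.05. Same-numbered samples showed no shared deviation, with correlations of −0.147, −0.0884 and −0.00287 for numbers 1, 2 and 3. Pairs with different numbers were at −0.0988 to 0.159. With 3 samples per group these values cannot show whether the numbers mark a shared batch. All-gene calls numbered 12 without NS control replicate 2, 13 without BCL9 KD replicate 2, 5 without BCL9 KD replicate 3 and 1729 without NS control replicate 3; the cause was not tested. Few reads limit the precision of the low genes.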
